A study of Mus musculus with 8 samples.

Results

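The sarcomere and Z-disc genes are 35 genes that encode the contractile unit of heart muscle and the proteins that anchor, build and turn it over. They were picked by symbol from a table of 17190 genes, and all 35 were listed there. The table came from RNA sequencing of hearts of male mice on standard chow. The mice were Gpihbp1-/- (4 hearts, numbered 1, 2, 3 and 4) or wild type (WT; 4 hearts, numbered 2, 4, 5 and 6). GPIHBP1 is the endothelial protein that carries lipoprotein lipase to the capillary lumen, and mice without it keep triglyceride-rich particles in their blood. The study asked what its loss does to the heart. The labels used here give no age, strain, littermate relation, collection day or cell-type restriction of the deletion, so a p-value here reflects how much the 8 hearts varied and nothing wider.

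In each sarcomere, thin filaments of actin, tropomyosin and the troponin complex slide along thick filaments of myosin. Calcium binding to troponin opens the thin filament to the myosin heads. Titin spans from the Z-disc, where thin filaments of neighbouring sarcomeres are cross-linked by alpha-actinin, to the M-band, where thick filaments are held together. The Z-disc also carries LIM-domain and scaffold proteins, desmin ties it to neighbouring myofibrils, and chaperones and ubiquitin ligases assemble and remove the parts. Mutations in many of these genes cause cardiomyopathy in humans.

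Of the 35 genes, 34 had enough reads to be tested. Tnni1, the troponin I of slow skeletal and fetal heart muscle, did not. In edgeR's quasi-likelihood test 0 of these 34 genes had an adjusted p under 0.05 between the genotypes, where 4 of 12826 genes did so in the whole table, 0.0312% of them. The smallest adjusted p among the members was 0.999977, and DESeq2 also called 0 of 34. At an unadjusted p under 0.05 there were again 0 of 34 members, against 0.904% of all genes, and the smallest unadjusted p was 0.164, for Lmod2. The libraries of both groups overlapped for every tested member, and did not overlap for 0.632% of all genes. With so few calls in the whole table, a count of 0 is near the background and does not show that the hearts were alike.

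The log2 fold changes of the members (Gpihbp1-/- over WT) ran from -0.66 for Myl2 to 0.67 for Lmod2. Their median was -0.035, beside -0.019 over all tested genes. The number of members above 0 was 12 of 34, and it depended on the scaling of the libraries. With trimmed-mean (TMM) scaling, 22 members were below 0, whereas with scaling by total counts 23 were above 0. Of all tested genes 47.1% were above 0 with TMM scaling, and 17 of 34 members lay above the median of all genes. Total-count scaling moved the median of all genes to 0.081, and 18 of 34 members then lay above that median. Leaving out WT heart 6 put 28 of 34 members above 0, with a median of 0.16. The median of all tested genes was then -0.0345, and 30 of 34 members lay above it. No direction is therefore given for the genes as a group.

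The precision set how much these values can say. The standard error of a member's log2 fold change had a median of 0.45 and ran from 0.32 to 0.69, and the median over all tested genes was 0.33. All 34 of the 95% intervals spanned 0. In 6 genes the interval stayed within -1 to 1, which is a 2-fold change either way, and in 33 it stayed within -2 to 2. Between hearts of 1 genotype the members varied more than most genes: the SD of log2 CPM within groups had a median of 0.67 for members and 0.46 for all tested genes. The highest library held 3.23 times the scaled CPM of the lowest at the median member, from 2.17 times for Unc45b to 10.7 times for Myl2.

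**Figure D1:**
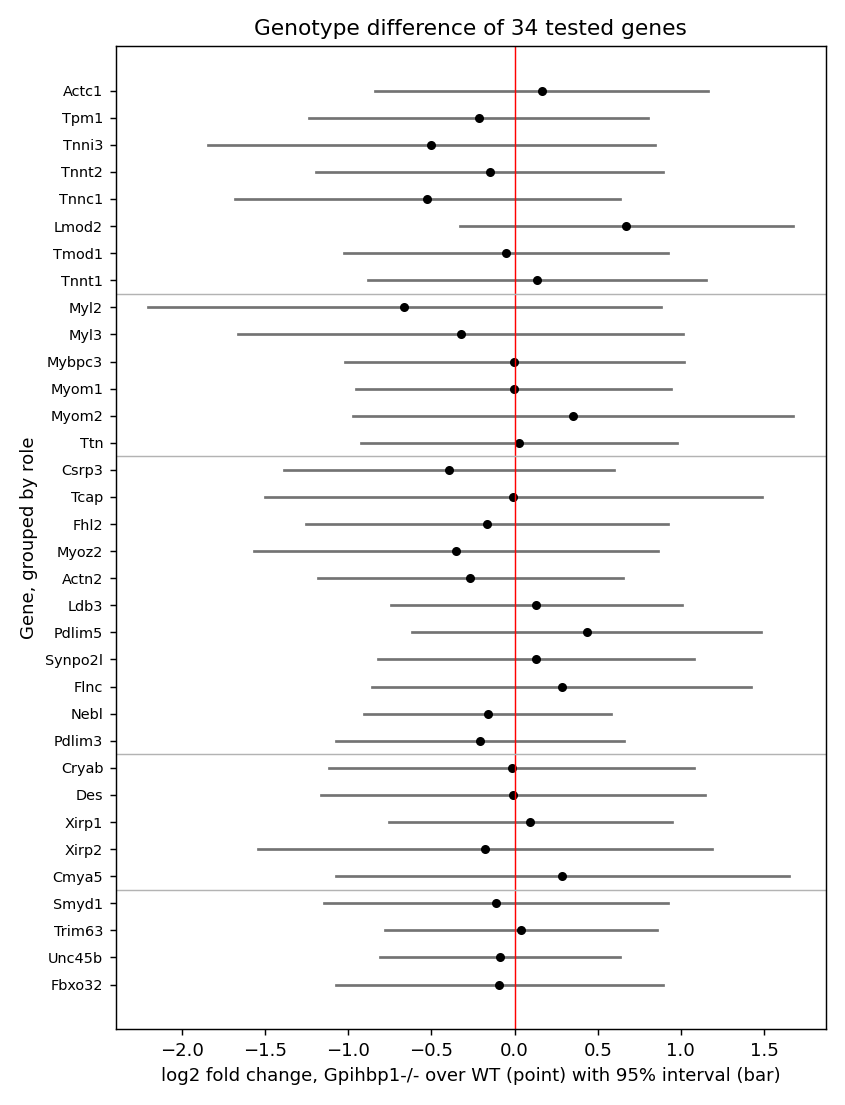
Genotype difference of the 34 tested sarcomere and Z-disc genes. The horizontal axis is the log2 fold change, Gpihbp1-/- over WT; points are estimates and bars 95% intervals, and grey lines part the 5 roles. All 34 bars cross 0, and the points lie between -0.66 and 0.67.

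The libraries differed in ways that the genotype labels do not give. Total counts were 9065553 to 13492957 per library. Gpihbp1 itself had 0, 0, 1 and 0 reads in Gpihbp1-/- hearts 1 to 4, against 1108, 1951, 833 and 1783 in WT hearts 2, 4, 5 and 6, so each library matched its label. Gpihbp1-/- heart 2 and WT heart 2 stood apart from the other 6. The fibroblast gene Postn had 35.5, 1069, 39.5 and 39.8 scaled CPM in Gpihbp1-/- hearts 1 to 4, against 1532, 43.6, 35.5 and 68.2 in WT hearts 2, 4, 5 and 6. Nppa, the atrial natriuretic peptide gene, had 159.6, 4467, 298 and 248 scaled CPM in Gpihbp1-/- hearts 1 to 4, against 3132, 215, 157 and 3262 in WT hearts 2, 4, 5 and 6, so that WT heart 6 was high as well. WT heart 6 stood apart in another way: the atrial light chain gene Myl4 had 2.03, 1.97, 2.45 and 1.98 scaled CPM in Gpihbp1-/- hearts 1 to 4, against 2.37, 1.9, 1.83 and 974 in WT hearts 2, 4, 5 and 6. Its TMM factor, 0.678, was the lowest of the 8, and the others ran from 0.964 to 1.16.

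Marker lists of the cell types a dissected heart can hold moved with these libraries. All 12 cardiomyocyte markers outside the members were listed above 0 in every heart. Their summed level was 57185, 23827, 63394 and 64159 TPM (a level per length) in Gpihbp1-/- hearts 1 to 4, against 24882, 54757, 68847 and 59819 in WT hearts 2, 4, 5 and 6. The 8 fibroblast markers summed to 649, 3763, 540.0 and 678 TPM in Gpihbp1-/- hearts 1 to 4, against 2805, 695, 673 and 241 in WT hearts 2, 4, 5 and 6. The 8 macrophage markers were highest in the same 2 hearts, at 4915 TPM in Gpihbp1-/- heart 2 and 5891 TPM in WT heart 2. They stayed between 802 and 949 TPM in the other Gpihbp1-/- hearts and between 505 and 885 TPM in the other WT hearts. The 8 atrial markers summed to 359.8 to 10805 TPM in Gpihbp1-/- hearts and 408 to 5947 TPM in WT hearts. The highest sum of each genotype was in heart 2, where Nppa, 1 of the 8, was high, and WT heart 6 had 4945 TPM. The other atrial markers did not move alike in the hearts numbered 2. Dkk3 had 2.56, 9.19, 3.72 and 3.49 scaled CPM in Gpihbp1-/- hearts 1 to 4, against 15.1, 3.61, 2.97 and 96.0 in WT hearts 2, 4, 5 and 6. Kcnj3 was lowest in heart 2 of each genotype. Myl7 had no read in Gpihbp1-/- hearts 1 and 2 and in WT heart 2, and had 427 scaled CPM in WT heart 6. Sln had no read in either heart 2 and had 356 scaled CPM in WT heart 6. The 6 erythroid markers summed to 1793 to 3749 TPM in Gpihbp1-/- hearts and 1257 to 18551 TPM in WT hearts, with the highest value in WT heart 6. The 12 skeletal muscle markers stayed at 14.7 to 59.3 TPM in Gpihbp1-/- hearts and 12.7 to 20.2 TPM in WT hearts, with the fast myosins Myh1, Myh2 and Myh4 at 0 in several hearts. Endothelial markers (7 genes) summed to 387 to 843 TPM in Gpihbp1-/- hearts and 276 to 1141 TPM in WT hearts, and smooth muscle and pericyte markers (9 genes) to 455 to 603 TPM in Gpihbp1-/- hearts and 117 to 602 TPM in WT hearts. Neutrophil markers (5 genes) reached 15.4 to 472 TPM in Gpihbp1-/- hearts and 15.2 to 63.4 TPM in WT hearts, and the 4 adipocyte markers stayed under 1 TPM. The part of cell makeup in the values below was not tested, and in bulk tissue fewer cardiomyocytes and less of these RNAs per cardiomyocyte cannot be told apart.

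Because many sarcomere genes are classically studied through SRF (CArG box) and MEF2 sites near their start, 4 promoters with such a match are shown. Each runs 250 bases up to the base before the start, 5′ to 3′ on the gene's strand, from RefSeq on GRCm38.p6, with matches in capitals. Actc1 lies at chr2:114052876-114053125 on the minus strand, Myl3 at chr9:110763428-110763677 on the plus strand, Ttn at chr2:76982548-76982797 on the minus strand and Xirp2 at chr2:67445752-67446001 on the plus strand.
Actc1: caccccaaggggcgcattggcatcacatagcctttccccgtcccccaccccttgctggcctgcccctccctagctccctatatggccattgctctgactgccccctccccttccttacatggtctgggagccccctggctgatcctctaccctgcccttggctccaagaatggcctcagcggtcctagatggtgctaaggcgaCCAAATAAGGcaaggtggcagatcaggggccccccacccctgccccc
Myl3: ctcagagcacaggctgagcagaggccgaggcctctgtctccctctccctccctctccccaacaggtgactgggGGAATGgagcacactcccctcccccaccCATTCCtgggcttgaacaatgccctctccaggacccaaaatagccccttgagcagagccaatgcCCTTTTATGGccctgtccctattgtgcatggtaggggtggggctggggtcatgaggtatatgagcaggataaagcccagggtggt
Ttn: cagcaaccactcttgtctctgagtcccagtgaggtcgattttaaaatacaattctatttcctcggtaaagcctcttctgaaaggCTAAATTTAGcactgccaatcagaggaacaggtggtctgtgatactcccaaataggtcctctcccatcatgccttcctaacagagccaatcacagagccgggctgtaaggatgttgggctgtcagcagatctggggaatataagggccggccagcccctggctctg
Xirp2: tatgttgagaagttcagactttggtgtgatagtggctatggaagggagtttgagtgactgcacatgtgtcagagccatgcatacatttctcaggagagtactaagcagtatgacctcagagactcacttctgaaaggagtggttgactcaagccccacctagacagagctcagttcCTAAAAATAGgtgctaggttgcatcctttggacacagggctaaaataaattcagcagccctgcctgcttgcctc
The capitals in Actc1 are a CArG box 47 to 38 bases before the start. In Myl3 they are a CArG box at 85 to 76 bases and 2 copies of CATTCC (the TEAD core), at 177 to 172 on the minus strand and 149 to 144 on the plus strand. The MEF2 match lies 166 to 157 bases before the start of Ttn and 74 to 65 before that of Xirp2.

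RefSeq held 42 such windows for 30 of the 35 genes, some of them alternative starts of 1 gene that overlap. In 32 of the 42 windows the bases after the start lay in a transcript of that gene in GENCODE. The shares below cover all 42. Both strands were searched for 4 motifs, and in 1 member window matches of different motifs overlapped. A CArG box lay in 8 of 42 windows (19%), belonging to Actc1, Fhl2, Ldb3, Myl3, Myom1 and Nebl, beside 1.47% of all 32851 windows. MEF2 sites were in 7 windows (16.7%), of Fhl2, Mybpc3, Myoz2, Synpo2l, Ttn and Xirp2, beside 2.92% of all windows. CATTCC was in 21.4% of member windows and 12.6% of all, and TATAAA in 14.3% and 12.4%. These are letter matches, described without a test, and say nothing on which factor bound.

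Levels differed widely between the 35 genes. At the median of the 8 hearts, Myl2 stood at 30883 TPM, Myl3 at 15487, Actc1 at 15307, Tpm1 at 11842 and Tnni3 at 10479.7. The cardiac forms thus led, and Tnni1 was last at 0.27 TPM. The members together took 12.2%, 9.20%, 13.8% and 13.2% of all TPM in Gpihbp1-/- hearts 1 to 4, against 8.63%, 11.3%, 12.2% and 11.6% in WT hearts 2, 4, 5 and 6. The lowest share in each genotype was that of heart 2. On the TPM scale 33 of 35 members had the higher mean in Gpihbp1-/- hearts, as did 81.9% of all tested genes, so group means in TPM and the log2 fold changes from scaled counts can point opposite ways.

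**Figure D2:**
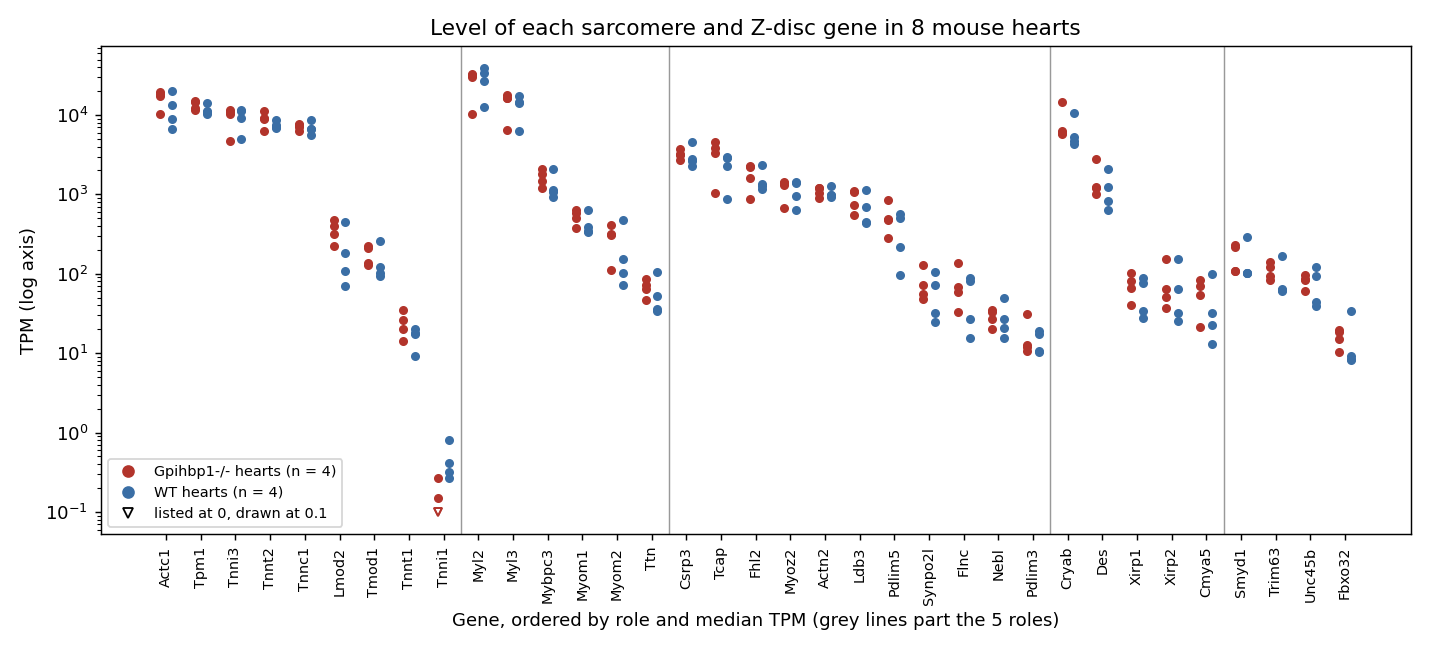
Level of the 35 genes in TPM (log axis), ordered by role and median level, with grey lines between roles. Each red point is a Gpihbp1-/- heart and each blue point a WT heart (4 each); open triangles mark values of 0, drawn at 0.1. Myl2 has the highest median, 30883 TPM, and Tnni1 the lowest, 0.27 TPM, and red and blue points overlap in each gene.

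The thin filament group held 9 genes, 8 of them tested, with 0 past the threshold. With TMM scaling 3 log2 fold changes were above 0 and 5 below, and total-count scaling gave 5 and 3. Without WT heart 6, 8 of 8 were above 0, with a median of 0.22, beside -0.0345 over all tested genes. Actc1, cardiac actin (NCBI gene 11464), had 9608, 14254, 19646 and 17196 scaled CPM in Gpihbp1-/- hearts 1, 2, 3 and 4, against 13807, 8150.1, 16932 and 15343 in WT hearts 2, 4, 5 and 6. The lowest hearts were Gpihbp1-/- 1 and WT 4, and the groups overlapped. Its log2 fold change was 0.16 with a 95% interval of -0.84 to 1.17 and an unadjusted p of 0.724 in edgeR. Actc1 averaged 16393 ± 4097 TPM in Gpihbp1-/- hearts and 12294 ± 6012 TPM in WT hearts (SD over the 4 hearts of each genotype, as for all TPM means below). Tpm1, the tropomyosin that lies along actin, averaged 13328 ± 1749 TPM in Gpihbp1-/- hearts and 11649.9 ± 1777 TPM in WT hearts, with a log2 fold change of -0.22 in scaled counts.

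Leiomodin and tropomodulin act at the pointed end of the thin filament, where leiomodin lets it grow and tropomodulin caps it. Lmod2 (NCBI gene 93677), which elongates cardiac thin filaments, had 290.1, 371, 569 and 627 scaled CPM in Gpihbp1-/- hearts 1 to 4, against 274, 143, 525 and 224 in WT hearts 2, 4, 5 and 6. The highest values were in Gpihbp1-/- hearts 3 and 4, and WT heart 5 lay above Gpihbp1-/- hearts 1 and 2, so the groups overlapped. The log2 fold change of 0.67 (SE 0.45, 95% interval -0.33 to 1.68) was the highest of the 34 and had the smallest p, 0.164 in edgeR. Without WT heart 5 it was 1.12, with an unadjusted p of 0.0197 and an adjusted p of 0.758 in edgeR. Over all the alternatives tried, its adjusted p ran from 0.0579, with the replicate number as a block, to 0.999985. The block fit compares the genotypes only in the hearts numbered 2 and 4, the numbers found in both. Tmod1, the tropomodulin of cardiac muscle, averaged 174 ± 48.0 TPM in Gpihbp1-/- hearts and 144 ± 76.7 TPM in WT hearts, and its log2 fold change was -0.052.

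The troponin complex joins a calcium sensor, an inhibitor and a tropomyosin-binding subunit. Tnnc1 (NCBI gene 21924), the calcium sensor of cardiac and slow muscle, had 2589, 2040.0, 2916 and 2831 scaled CPM in Gpihbp1-/- hearts 1 to 4, against 2762, 2437, 1791 and 7934 in WT hearts 2, 4, 5 and 6. WT heart 6 lay far above the other 7 hearts, which spanned 1791 to 2916 scaled CPM. The log2 fold change was -0.52 (95% interval -1.68 to 0.63, edgeR unadjusted p = 0.335), and without WT heart 6 it was 0.14. Tnni3 (NCBI gene 21954), the inhibitory subunit of adult heart, had 5478, 2116, 6485 and 5239 scaled CPM in Gpihbp1-/- hearts 1 to 4, against 2891, 5675, 4167 and 14589 in WT hearts 2, 4, 5 and 6. It was again highest in WT heart 6, and in each genotype lowest in heart 2. Its log2 fold change was -0.50 (95% interval -1.85 to 0.85) with all hearts and 0.16 without WT heart 6. Tnnt2 (NCBI gene 21956), the cardiac tropomyosin-binding subunit, had 6138, 3895, 8736 and 6523 scaled CPM in Gpihbp1-/- hearts 1 to 4, against 5332, 5973, 4769.8 and 11976 in WT hearts 2, 4, 5 and 6. The same WT heart was highest, and the log2 fold change was -0.15 (95% interval -1.19 to 0.89) with all hearts and 0.22 without it. On the per-length scale, Tnnc1 averaged 7165 ± 574 TPM in Gpihbp1-/- hearts and 6952 ± 1324 TPM in WT hearts and Tnni3 averaged 9330.1 ± 3153 TPM in Gpihbp1-/- hearts and 9233 ± 2991 TPM in WT hearts. For both subunits the group means in TPM differed by less than the larger SD. In TPM WT heart 6 was still the highest for Tnnc1 (8761 TPM). Gpihbp1-/- heart 3 exceeded WT heart 6 for Tnni3 (11671 against 11586 TPM) and Tnnt2 (11297 against 7161 TPM).

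Slow skeletal troponin I is the main form of the fetal heart and gives way to the cardiac form after birth, whereas cardiac troponin T already leads before birth. Tnnt1 (NCBI gene 21955), the slow skeletal troponin T, had 17.9, 7.74, 14.5 and 23.4 scaled CPM in Gpihbp1-/- hearts 1 to 4, against 6.83, 13.4, 11.002 and 26.8 in WT hearts 2, 4, 5 and 6. The lowest heart of each genotype was heart 2, and the log2 fold change was 0.13 (95% interval -0.88 to 1.15). Tnni1 (NCBI gene 21952) had 0, 4, 0 and 1 reads in Gpihbp1-/- hearts 1 to 4, against 5, 2, 2 and 9 in WT hearts 2, 4, 5 and 6. In Gpihbp1-/- hearts 1 and 3 a count of 0 allows up to 0.265 and 0.294 scaled CPM, counting error only. Tnni1 made up 0%, 0.00576%, 0% and 0.00147% of the TPM of Tnni1 plus Tnni3 in Gpihbp1-/- hearts 1 to 4, against 0.00815%, 0.00287%, 0.00294% and 0.00690% in WT hearts 2, 4, 5 and 6. The counts of 0 allow shares of up to 0.00484% and 0.00453%. The difference of -0.00341 percentage points had p = 0.114 in an exact two-sided permutation test, whose smallest possible p is 0.0286 (adjusted over 2 shares, 0.229).

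Tnnt1 made up 0.299%, 0.227%, 0.176% and 0.378% of the TPM of Tnnt1 plus Tnnt2 in Gpihbp1-/- hearts 1 to 4, against 0.134%, 0.229%, 0.243% and 0.239% in WT hearts 2, 4, 5 and 6. The means were 0.270% ± 0.0880 in Gpihbp1-/- hearts and 0.211% ± 0.0518 in WT hearts (SD, n = 4 each). The difference of 0.0584 percentage points lay within that spread (exact two-sided permutation p = 0.343, adjusted 0.343). In all 8 hearts, then, cardiac troponin I and T made up nearly all of their pair, and a change of isoform was not detectable.

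Thick filament, M-band and titin genes numbered 6, all tested, with 0 past the threshold. With TMM scaling 2 log2 fold changes were above 0 and 4 below, and total-count scaling gave 4 and 2. Without WT heart 6, 6 of 6 were above 0, with a median of 0.19, beside -0.0345 over all tested genes. Myl2 (NCBI gene 17906), the regulatory light chain of ventricular myosin, had 10435, 2915, 11004 and 9754 scaled CPM in Gpihbp1-/- hearts 1 to 4, against 4582, 10726, 7595 and 31094 in WT hearts 2, 4, 5 and 6. In each genotype heart 2 was lowest, and WT heart 6 was far above the rest. Its log2 fold change of -0.66 (SE 0.69, 95% interval -2.20 to 0.88, edgeR unadjusted p = 0.358) was the lowest of the 34, and without WT heart 6 it was 0.14. In TPM the means differed by less than the larger SD, with 26195 ± 10659.6 TPM in Gpihbp1-/- hearts and 28015 ± 11335 TPM in WT hearts. Myl3 (NCBI gene 17897), the essential light chain of ventricular and slow muscle, had 9146, 2886, 9004 and 8275 scaled CPM in Gpihbp1-/- hearts 1 to 4, against 3541, 8645, 6650.5 and 17859.5 in WT hearts 2, 4, 5 and 6. It followed the same order of hearts at both ends, and its log2 fold change was -0.32 (95% interval -1.66 to 1.01) with all hearts and 0.20 without WT heart 6. In TPM, however, Gpihbp1-/- heart 1 was highest for Myl3 (18105 TPM), and WT heart 6 had 14259 TPM.

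The ratio of Myl2 to Myl3 in TPM was 1.81, 1.59, 1.94 and 1.85 in Gpihbp1-/- hearts 1 to 4, against 2.04, 1.96, 1.82 and 2.73 in WT hearts 2, 4, 5 and 6. The ratio of the light chains thus stayed between 1.59 and 2.04 in 7 of the 8 hearts and was higher in WT heart 6. Myl2 over Actc1, by contrast, was 3.16, 0.592, 1.64 and 1.63 in Gpihbp1-/- hearts 1 to 4, against 0.959, 3.79, 1.32 and 5.77 in WT hearts 2, 4, 5 and 6. In the 2 hearts numbered 2 cardiac actin RNA exceeded Myl2 per length, and in the other 6 Myl2 exceeded it. These ratios were chosen after their values were seen and carry no test.

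Titin is the molecular spring of the sarcomere and its RNA is the longest here. Ttn (NCBI gene 22138) had 3028, 2008, 3784 and 4003 scaled CPM in Gpihbp1-/- hearts 1 to 4, against 1894, 2503, 4478 and 3701 in WT hearts 2, 4, 5 and 6. The groups covered nearly the same range, with a log2 fold change of 0.028 (95% interval -0.92 to 0.98, edgeR unadjusted p = 0.949). Per length it averaged 67.0 ± 16.0 TPM in Gpihbp1-/- hearts and 56.6 ± 32.6 TPM in WT hearts. Mybpc3, cardiac myosin-binding protein C of the thick filament, averaged 1651 ± 399.8 TPM in Gpihbp1-/- hearts and 1306 ± 529 TPM in WT hearts, with a log2 fold change of -0.0018. Of the M-band cross-linkers, Myom1 averaged 523 ± 114 TPM in Gpihbp1-/- hearts and 427 ± 146 TPM in WT hearts, with a log2 fold change of -0.0061. Myom2 (NCBI gene 17930), the myomesin of fast muscle and adult heart, had 1121, 355, 1254 and 1465 scaled CPM in Gpihbp1-/- hearts 1 to 4, against 289, 549, 1565 and 883 in WT hearts 2, 4, 5 and 6. Heart 2 was lowest in both genotypes, and the log2 fold change was 0.35 (95% interval -0.97 to 1.68, edgeR unadjusted p = 0.563). Leaving out 1 heart at a time moved it between 0.074, without WT heart 2, and 0.87, without WT heart 5. The ratio of Myom2 to Myom1 in TPM was 0.627, 0.296, 0.545 and 0.637 in Gpihbp1-/- hearts 1 to 4, against 0.215, 0.400, 0.745 and 0.290 in WT hearts 2, 4, 5 and 6, again lowest in heart 2 of each genotype. This ratio too was chosen after its values were seen. Its Myom1 values rest on a length estimate that varied by 30.5% between hearts, as described below.

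The Z-disc group was the largest, with 11 genes, all tested and 0 past the threshold. With TMM scaling 4 log2 fold changes were above 0 and 7 below, and total-count scaling gave 6 and 5. Without WT heart 6, 8 of 11 were above 0. Actn2, the alpha-actinin that cross-links thin filaments, averaged 1089 ± 143 TPM in Gpihbp1-/- hearts and 1044 ± 156 TPM in WT hearts, with a log2 fold change of -0.27. Telethonin (Tcap), which caps the end of titin in the Z-disc, averaged 3208 ± 1528 TPM in Gpihbp1-/- hearts and 2256 ± 965 TPM in WT hearts, with a log2 fold change of -0.0071. Its scaled CPM differed 7.66-fold between the lowest and the highest heart. Csrp3 (NCBI gene 13009), the muscle LIM protein of the Z-disc, had 1334, 1644, 1706 and 1632 scaled CPM in Gpihbp1-/- hearts 1 to 4, against 2587, 1139, 1155 and 3418 in WT hearts 2, 4, 5 and 6. The Gpihbp1-/- hearts lay close together and inside the range of the WT hearts, which spread widely. The log2 fold change was -0.39 (95% interval -1.39 to 0.60, edgeR unadjusted p = 0.396), and without WT heart 6 it was -0.050.

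Among the PDZ and LIM proteins that bind alpha-actinin, Pdlim5 (NCBI gene 56376) had 440.0, 1198, 782 and 749.9 scaled CPM in Gpihbp1-/- hearts 1 to 4, against 982, 332, 690.4 and 341 in WT hearts 2, 4, 5 and 6. Heart 2 was highest in both genotypes, and WT hearts 4 and 6 were lowest. Its log2 fold change was 0.44 (95% interval -0.61 to 1.48, edgeR unadjusted p = 0.375). It was 0.16 without Gpihbp1-/- heart 2 and 0.80 without WT heart 2. Ldb3 (Cypher), which links alpha-actinin to signalling proteins, averaged 864 ± 269 TPM in Gpihbp1-/- hearts and 685 ± 333 TPM in WT hearts, with a log2 fold change of 0.13. Pdlim3 was scarce, averaging 16.6 ± 9.79 TPM in Gpihbp1-/- hearts and 14.4 ± 4.48 TPM in WT hearts, with a log2 fold change of -0.21. Fhl2, a LIM-only protein that binds titin and signalling partners, averaged 1750.0 ± 655 TPM in Gpihbp1-/- hearts and 1545 ± 559 TPM in WT hearts, with a log2 fold change of -0.16.

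Myoz2, the cardiac calsarcin that tethers calcineurin to the Z-disc, averaged 1201 ± 353 TPM in Gpihbp1-/- hearts and 1103 ± 380.5 TPM in WT hearts, with a log2 fold change of -0.35. Nebl, the cardiac relative of nebulin, averaged 28.9 ± 6.88 TPM in Gpihbp1-/- hearts and 28.1 ± 14.999 TPM in WT hearts, with a log2 fold change of -0.16. Filamin C (Flnc), an actin cross-linker that gathers at Z-discs and their lesions, averaged 74.0 ± 43.9 TPM in Gpihbp1-/- hearts and 52.9 ± 36.9 TPM in WT hearts, with a log2 fold change of 0.28. Synpo2l, a synaptopodin-like actin-binding protein of the Z-disc, averaged 76.5 ± 36.8 TPM in Gpihbp1-/- hearts and 58.6 ± 37.2 TPM in WT hearts, with a log2 fold change of 0.13. For each of these 4 genes the group means in TPM differed by less than the larger SD.

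Desmin, alpha-B crystallin and the proteins of intercalated discs and costameres formed a group of 5 genes, all tested, with 0 past the threshold. With TMM scaling 2 log2 fold changes were above 0 and 3 below, and total-count scaling gave 4 and 1. Without WT heart 6, 4 of 5 were above 0. Des encodes the intermediate filament that ties Z-discs together, and averaged 1564 ± 831 TPM in Gpihbp1-/- hearts and 1192 ± 641 TPM in WT hearts, with a log2 fold change of -0.0079. Cryab, a small heat shock protein that protects desmin and titin, averaged 8146 ± 4258 TPM in Gpihbp1-/- hearts and 6216 ± 3002 TPM in WT hearts, with a log2 fold change of -0.019. Xirp1 (Xin) of the intercalated disc averaged 72.5 ± 25.6 TPM in Gpihbp1-/- hearts and 57.0 ± 30.9 TPM in WT hearts, with a log2 fold change of 0.10. Its relative Xirp2 (NCBI gene 241431) had 326, 1218, 495 and 564 scaled CPM in Gpihbp1-/- hearts 1 to 4, against 1514, 225, 511 and 692 in WT hearts 2, 4, 5 and 6. Heart 2 was highest in each genotype by a wide margin, and the log2 fold change was -0.18 (95% interval -1.54 to 1.19, edgeR unadjusted p = 0.778).

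Cmya5 (NCBI gene 76469), myospryn, which binds desmin and anchors signalling proteins, ran the other way. It had 475, 168, 684 and 729 scaled CPM in Gpihbp1-/- hearts 1 to 4, against 128, 277, 791 and 489 in WT hearts 2, 4, 5 and 6, lowest in heart 2 of each genotype. The log2 fold change was 0.29 (95% interval -1.08 to 1.65, edgeR unadjusted p = 0.648). In TPM the ratio of Cmya5 to Xirp2 was 1.47, 0.138, 1.39 and 1.30 in Gpihbp1-/- hearts 1 to 4, against 0.0848, 1.24, 1.56 and 0.710 in WT hearts 2, 4, 5 and 6. This ratio, chosen after its values were seen, separated the hearts numbered 2 from the other 6 and did not separate the genotypes.

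The last group held the factors that build and degrade the sarcomere, with 4 genes, all tested and 0 past the threshold. With TMM scaling 1 log2 fold change was above 0 and 3 below, and total-count scaling gave 4 and 0. Without WT heart 6, 2 of 4 were above 0. Unc45b (NCBI gene 217012), the chaperone that folds myosin heads, had 208, 135, 238 and 245 scaled CPM in Gpihbp1-/- hearts 1 to 4, against 126, 234, 274 and 243 in WT hearts 2, 4, 5 and 6. It was the steadiest member, with the lowest heart of each genotype again numbered 2, and its log2 fold change was -0.088 (SE 0.32, 95% interval -0.81 to 0.63, edgeR unadjusted p = 0.79). Smyd1 (NCBI gene 12180), a muscle methyltransferase that works with it on myosin, had 257, 224, 565 and 539 scaled CPM in Gpihbp1-/- hearts 1 to 4, against 275, 236, 615 and 587 in WT hearts 2, 4, 5 and 6. Gpihbp1-/- hearts 1 and 2 and WT hearts 2 and 4 were low, the other 4 high, and the log2 fold change was -0.11 (95% interval -1.15 to 0.93). The other 2 genes encode the ubiquitin ligases of muscle atrophy. Trim63 (MuRF1) averaged 110.5 ± 26.9 TPM in Gpihbp1-/- hearts and 88.9 ± 51.5 TPM in WT hearts, with a log2 fold change of 0.039. Fbxo32 (atrogin-1) averaged 16.0 ± 4.18 TPM in Gpihbp1-/- hearts and 14.9 ± 12.6 TPM in WT hearts, with a log2 fold change of -0.092.

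The hearts numbered 2 resembled each other in many members. In 15 of 34 tested members (44.1%) heart 2 was the lowest of both genotypes, where 20.5% of all tested genes had that pattern. They included Myl2, Myl3, Tnni3, Ttn, Mybpc3, both myomesins, Tcap, Ldb3, Myoz2, Cmya5 and Unc45b. In 7 members (20.6%; 25.1% of all genes) heart 2 was the highest of both. They were Flnc, Pdlim5, Synpo2l, Des, Cryab, Xirp1 and Xirp2. That share lay below the share of all genes. In the hearts numbered 2 the scaled CPM of 9 of 12 cardiomyocyte markers was the lowest of both genotypes, and that of Ryr2, Casq2 and Slc8a1 was not. The endothelial markers Pecam1, Cdh5, Kdr, Tie1, Emcn and Tek were also lowest in heart 2 of both genotypes, and Egfl7 only in Gpihbp1-/- heart 2. Endothelial markers deviated from their mean over the 8 hearts by a median of -0.69 in Gpihbp1-/- heart 2 and -0.93 in WT heart 2, in log2 scaled CPM. For the cardiomyocyte markers these medians were -0.86 and -1.04. For 7 of 8 fibroblast markers, all but Dcn, and for 8 of 8 macrophage markers heart 2 was the highest of both genotypes. The part of cell makeup was not tested. The labels do not say that equal numbers mark a shared batch, day or litter.

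Some pairs of members moved apart in the hearts numbered 2, also within the Z-disc group, as ratios show without any scaling of libraries. Cryab over Myl2 in TPM was 0.177, 1.41, 0.200 and 0.198 in Gpihbp1-/- hearts 1 to 4, against 0.841, 0.139, 0.194 and 0.110 in WT hearts 2, 4, 5 and 6. Desmin over alpha-actinin (Des over Actn2) was 0.954, 3.10, 1.001 and 1.04 in Gpihbp1-/- hearts 1 to 4, against 2.24, 0.636, 0.964 and 0.844 in WT hearts 2, 4, 5 and 6. Tcap over Csrp3 was 1.71, 0.280, 1.07 and 1.17 in Gpihbp1-/- hearts 1 to 4, against 0.190, 1.30, 0.879 and 1.03 in WT hearts 2, 4, 5 and 6. In each ratio the hearts numbered 2 stood at 1 end, and the other hearts of both genotypes overlapped. These ratios too were chosen after their values were seen.

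**Figure D3:**
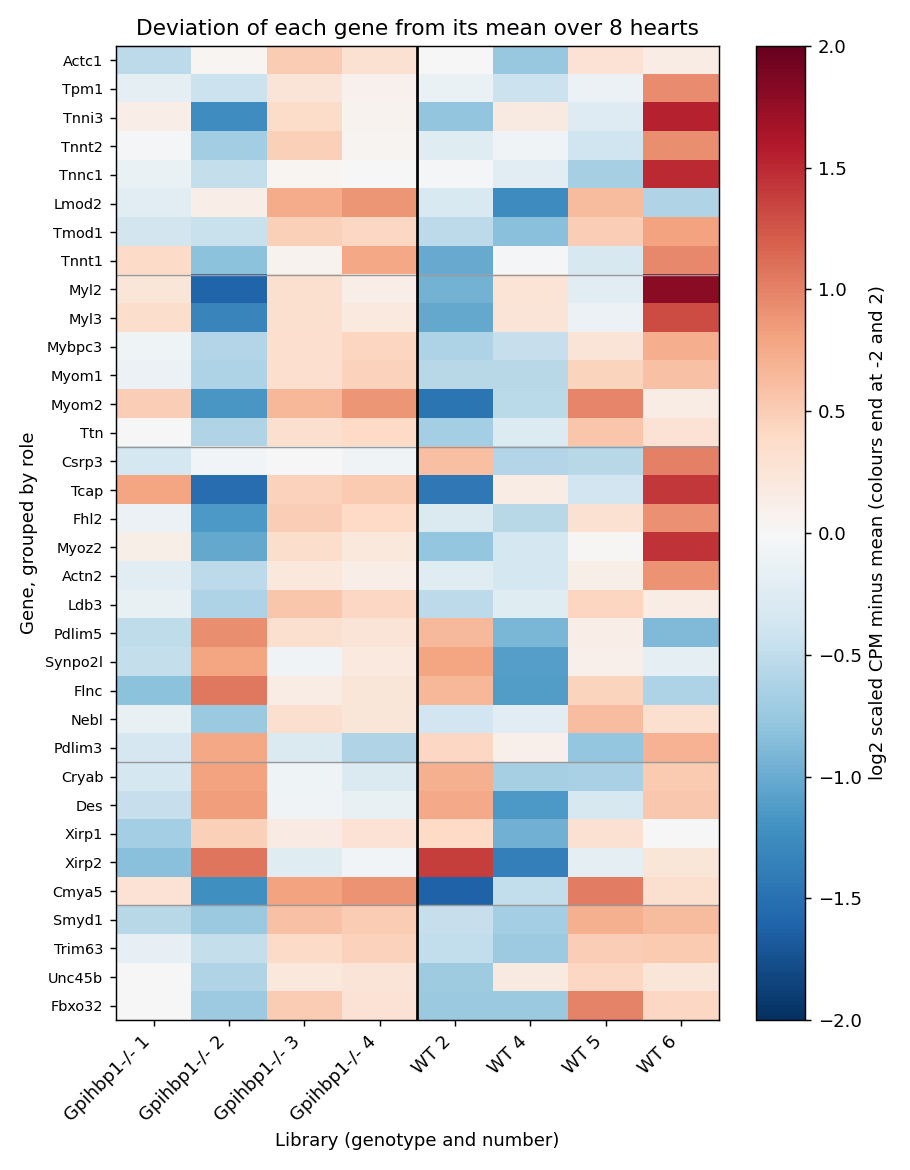
Deviation of each tested gene from its mean over the 8 hearts, in log2 scaled CPM, with colours ending at -2 and 2. Columns are libraries, the 4 Gpihbp1-/- hearts left of the 4 WT hearts, and rows are genes grouped by role. Heart 2 of both genotypes shows blue (low) for Myl2, Tcap and Cmya5 and red (high) for Xirp2 and Cryab. Genes above their mean (red) number 29 of 34 in WT 6, 29 in Gpihbp1-/- 3 and 28 in Gpihbp1-/- 4.

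A second difference lay between WT heart 6 and the rest. The median deviation of the tested members from their mean over the hearts, in log2 scaled CPM, was -0.15, -0.59, 0.32 and 0.26 in Gpihbp1-/- hearts 1 to 4, against -0.42, -0.52, 0.20 and 0.56 in WT hearts 2, 4, 5 and 6. The corresponding medians over all tested genes all lay within 0.1 of 0. Members above their mean numbered 29 of 34 in WT heart 6, 29 in Gpihbp1-/- heart 3 and 28 in Gpihbp1-/- heart 4. WT heart 6 was the highest of the 8 libraries for 16 of 34 members, where it was so for 25.1% of all genes. Gpihbp1-/- heart 2 was the lowest for 12 members and WT heart 4 for 13, where they were so for 13.1% and 17% of all genes. Hearts of both genotypes therefore stood at each end of the range.

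The excess in WT heart 6 was larger for short RNAs. The 21 tested members with an effective length under 3000 bases deviated by a median of 0.91 in log2 scaled CPM there, and the 13 members of 3000 bases or more by 0.29. In WT heart 5 the order was the reverse, at -0.11 for short and 0.45 for long members. On the scale of log2(TPM + 1), long members deviated by -0.78 and short ones by -0.19 in WT heart 6, beside -1.02 for 5190 long and -0.69 for 7139 short genes of the whole table. Over the 34 members the rank correlation of the deviation in log2(TPM + 1) with length was -0.25, 0.22, 0.034 and 0.29 in Gpihbp1-/- hearts 1 to 4, against 0.092, -0.44, 0.67 and -0.69 in WT hearts 2, 4, 5 and 6. Over 12329 genes it was between -0.052 and 0.26 in Gpihbp1-/- hearts and between -0.44 and 0.46 in WT hearts, with WT heart 6 lowest and WT heart 5 highest in both. Genes within a library share its depth and RNA quality, so these correlations are descriptions without a test. The part of RNA quality in them was not tested.

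**Figure D4:**
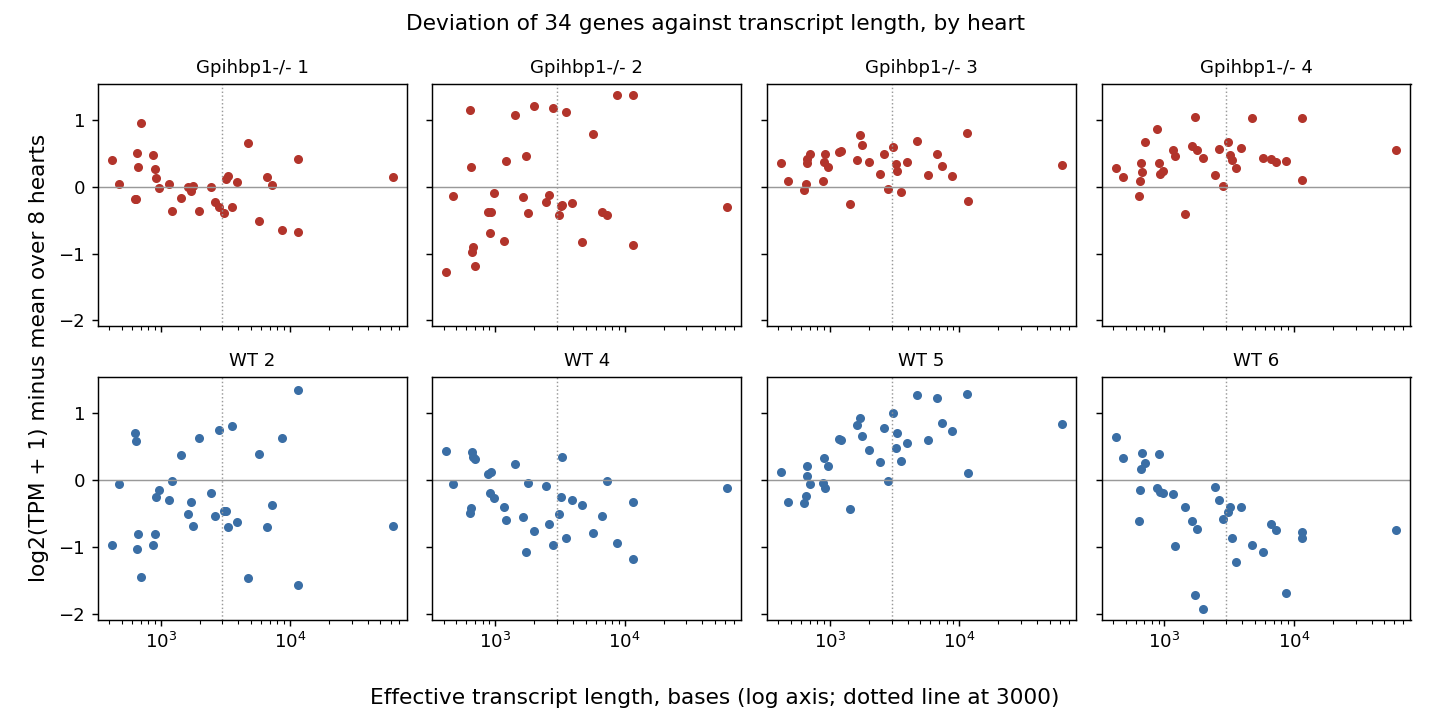
Deviation of each tested gene from its mean over the 8 hearts, in log2(TPM + 1), against effective length in bases (log axis), with 1 panel per library and the Gpihbp1-/- hearts in the upper row. Each point is 1 of 34 genes. In WT 6 the points slope down with length (rank correlation -0.69) and in WT 5 they slope up (0.67). The correlation was 0.092 in WT 2 and -0.44 in WT 4, and between -0.25 and 0.29 in the Gpihbp1-/- panels.

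The deposited values also carry an estimate of the effective length of each gene's RNA in every heart, which moves when a library uses longer or shorter isoforms, or when reads are assigned differently between them. After a common shift per library was removed, it varied by less than 5% of the gene's median in 25 of 34 members. It varied by 5% or more in 9, most in Myom1, by 30.5%. Myom1 had 3138, 3323, 3351 and 3637 bases in Gpihbp1-/- hearts 1 to 4, against 3100, 3038, 3967 and 3007 in WT hearts 2, 4, 5 and 6. Ldb3, known for long and short Cypher isoforms, had 1757, 1918, 1726 and 1801 bases in Gpihbp1-/- hearts 1 to 4, against 1959, 1727, 1847 and 1507 in WT hearts 2, 4, 5 and 6. Actn2 varied by 19.0% and Synpo2l by 12.3%, and Pdlim5, Tnnt1, Ttn, Myoz2 and Tnnt2 by 5.11% to 9.66%. Myom1, Actn2 and Synpo2l were longest in WT heart 5, where long RNAs as a whole were high, and shortest in WT heart 6. The groups overlapped for all 34 genes. This measure was chosen after its values were seen.

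The same fit covered the rest of the sarcomere. Of 71 other genes of the contractile apparatus, all listed, 61 were tested, and 0 passed the threshold in edgeR or DESeq2. Their log2 fold changes were above 0 in 37 and below 0 in 24 with TMM scaling, with a median of 0.045, beside -0.019 over all tested genes. The quasi-likelihood test gave 1 gene an unadjusted p under 0.05, namely Myl4 with 0.0124. Myl4 had 974 scaled CPM in WT heart 6 and 1.83 to 2.45 in the other 7 hearts. Myot, a Z-disc protein, had 75.9, 67.8, 141 and 118 scaled CPM in Gpihbp1-/- hearts 1 to 4, against 43.9, 34.03, 60.9 and 90.9 in WT hearts 2, 4, 5 and 6. Its log2 fold change was 0.81 (95% interval -0.0029 to 1.63, edgeR unadjusted p = 0.0507). The log2 fold change was -0.74 for Myh7, the slow myosin heavy chain of the fetal ventricle, -0.68 for Hspb2, a small heat shock protein, and 0.57 for Alpk2, a kinase of muscle. The unadjusted p-values of those 3 genes in edgeR ran from 0.116 to 0.173. Myh7 had 159.6, 151, 116 and 74.9 scaled CPM in Gpihbp1-/- hearts 1 to 4, against 121, 135, 182 and 402 in WT hearts 2, 4, 5 and 6, highest in WT heart 6. Hspb2 had 95.3, 143, 118 and 94.7 scaled CPM in Gpihbp1-/- hearts 1 to 4, against 194, 129, 73.0 and 325 in WT hearts 2, 4, 5 and 6, again highest in that heart. Without WT heart 6 the log2 fold change was -0.24 for Myh7 and -0.24 for Hspb2, beside 1.11 for Myot and 0.44 for Alpk2.

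Transcription factors that act on sarcomere genes were tested in all 15 cases, with 0 past the threshold in edgeR or DESeq2 and 0 at an unadjusted p under 0.05 in edgeR. Their log2 fold changes were above 0 in 9 and below 0 in 6 with TMM scaling, with a median of 0.053. Srf, the factor of the CArG box and named here for the promoters above, had 113, 118, 172 and 159.7 scaled CPM in Gpihbp1-/- hearts 1 to 4, against 119, 90.7, 176 and 207 in WT hearts 2, 4, 5 and 6, with a log2 fold change of -0.078 (95% interval -0.77 to 0.62). The 5 factors of smallest p had log2 fold changes of 0.49 for Tbx5, -0.29 for Mrtfa, -0.25 for Mef2a, 0.26 for Gata4 and 0.37 for Tead1, with unadjusted p-values of 0.345 to 0.397 in edgeR.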

How the data were processed

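Hearts of 8 male mice, 4 Gpihbp1-/- and 4 WT, were sequenced as poly(A)-selected, strand-specific (dUTP), paired-end libraries on a DNBSEQ instrument, per the labels' protocols. One protocol paragraph names rat tissue, whereas every sample is listed as mouse. HISAT, Bowtie2 and the build GRCm39 are named in the submitters' processing notes, with no versions, and the sources used here name no counting program. The table deposited by the authors holds estimated counts, TPM and FPKM per gene and library, per the file headers. Its 8 further per-sample columns were empty and not used. Between 4.32% and 5.89% of a library's estimated counts were not whole, and they were rounded before testing.

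Genes were kept by filterByExpr (minimum count 10, minimum total 15). The fit used edgeR 4.0.16 (TMM scaling, robust quasi-likelihood test, Gpihbp1-/- against WT, no covariate) in R 4.3.3, with Benjamini-Hochberg adjustment over 12826 genes and a threshold of 0.05. DESeq2 1.42.0 was an alternative. Scaled CPM are counts scaled to the library total times its TMM factor (CPM) and serve to compare libraries. Deposited TPM serve to compare genes. Effective lengths are deposited counts over FPKM and the library total. The biological coefficient of variation was 43.7%. Groups and heart numbers came from the sample titles. Numbers 2 and 4 occur in both genotypes, and nothing in the labels pairs the hearts. No pair of libraries agreed within sampling noise, the smallest chi-square per degree of freedom over 28 pairs being 7.56. Floors and totals cover counting error only, because the libraries were amplified and carry no molecular identifiers.

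All 35 genes are named. Values in every heart are given for the 2 genes of smallest p in each of the 5 roles, the troponin pairs, Ttn and the 3 genes of highest mean TPM. The genes, roles and marker lists were chosen with earlier results of these data known. Promoter sequences and starts are those of RefSeq on GRCm38.p6, and no coordinate was carried between builds.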

Additional observations from a re-analysis of the deposited data

Results flagged for a closer look

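Each value below lay apart from the other 3 hearts of its genotype by more than Dixon's 95% limit for groups of 4. Of 74 groups examined 9 were flagged. Chance flags about 1 in 20 independent groups. Genes of the same heart are not independent, so the count cannot be judged against that rate. Of the 9, 4 fell in WT heart 6, 4 in Gpihbp1-/- heart 2 and 1 in WT heart 2.

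WT heart 6 was high for Tpm1 (19650 scaled CPM), Tnnt2 (11977 scaled CPM), Tnnc1 (7934 scaled CPM) and Tnni1 (1.26 scaled CPM, from 9 reads). In TPM this heart was also the highest for Tnnc1 (8761 TPM) and Tnni1 (0.8 TPM). It was not so for Tpm1 (10862 TPM, against 15101 in Gpihbp1-/- heart 3) or Tnnt2 (7161 TPM, against 11297 in Gpihbp1-/- heart 3). Gpihbp1-/- heart 2 was low for both ventricular light chains, with 2915 scaled CPM for Myl2 and 2886 for Myl3. The same heart was high for Cryab (6210 scaled CPM) and Pdlim3 (30.1 scaled CPM). In WT heart 2 the share of Tnnt1 in the TPM of Tnnt1 plus Tnnt2 was low, at 0.134%.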

How the results depend on the processing

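With 4 hearts per genotype the median standard error of a member was 0.45, and the 95% intervals of 6 of 34 members stayed within a 2-fold change. The members past the threshold numbered 0 of 34 under every alternative run, and their smallest adjusted p was 0.0579, for Lmod2 with the replicate block. Over all genes 4 passed. With a mean of at least 5 CPM 2 passed, with DESeq2 8, and with the replicate block 168, while leaving out 1 heart gave 2 to 3 (2 without WT 4 or WT 5). Only numbers 2 and 4 occur in both genotypes, so in the block fit the genotype difference came from those hearts alone. Same-numbered hearts deviated together for number 2 (r = 0.91 over 12826 genes) and hardly for number 4 (r = 0.11), and 2 pairs cannot show pairing. In that block fit the median member log2 fold change was 0.42 and 27 of 34 were above 0, against -0.035 and 12 without it. The median over all tested genes in the block fit was 0.019.

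The 16 tested members with values in every heart gave 256 values under alternatives. Of these 36 changed sign, none of them past the threshold, and the cause was not tested. Of the 256, 5 had an unadjusted p under 0.05 in edgeR. The replicate block gave 0.50 for Xirp2, 0.081 for Unc45b and 0.45 for Smyd1. Total-count scaling gave 0.014 for Unc45b, 0.033 for Smyd1 and 0.030 for Tnnt2. Without Gpihbp1-/- 2, WT 2 and WT 6 the values were 0.40 for Tnnc1, 0.18 for Myl2, 0.44 for Csrp3, 0.33 for Xirp2, 0.094 for Smyd1, 0.22 for Tnni3, 0.41 for Tnnt2 and 0.21 for Myl3. In that setting 30 of 34 tested members were above 0, with a median of 0.26, beside 0.0032 over all tested genes. Leaving out 1 heart at a time gave -0.75 to 0.14 for Tnnc1, -0.94 to 0.14 for Myl2, -0.012 to 0.79 for Cmya5, -0.67 to 0.45 for Xirp2, -0.28 to 0.070 for Unc45b, -0.33 to 0.12 for Smyd1, -0.75 to 0.16 for Tnni3, -0.11 to 0.59 for Tnnt1, -0.34 to 0.22 for Tnnt2, -0.15 to 0.25 for Ttn, -0.012 to 0.33 for Actc1 and -0.59 to 0.20 for Myl3. Without a change of sign it gave 0.45 to 1.12 for Lmod2, 0.074 to 0.87 for Myom2, 0.16 to 0.80 for Pdlim5 and -0.59 to -0.050 for Csrp3.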
